A study of Mus musculus with 2 samples.

Results

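Hepatocyte and bile duct cell identity is held by a small set of liver-enriched transcription factors, and 8 of them outside the nuclear receptor family are described here: Foxa1, Foxa2, Foxa3, Onecut1, Onecut2, Cebpa, Cebpb and Prox1. They were chosen by gene symbol, from probe sets that the platform annotation gave exactly 1 symbol, and are 8 of 22180 genes with a value. Liver RNA of E4bp4-LKO male mice was compared with liver RNA of WT male mice, with 1 array of pooled RNA for each genotype. Both genotypes were kept at 25 °C with light and dark phases of 12 hours each, and at 2 months of age were moved from regular chow to a high-fat diet for 12 weeks. E4BP4 (gene symbol Nfil3) is a repressor of the basic leucine zipper family. The letters LKO are not spelled out in the labels, and the sources used here name neither the driver of the deletion nor the strain, pool size or collection time.

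FOXA proteins are winged-helix factors that open compacted chromatin at liver genes, and ONECUT proteins bind beside them through a cut domain and a homeodomain. C/EBP proteins are basic leucine zipper factors that drive genes of glucose, urea and lipid metabolism and of the acute phase, and their DNA element resembles the D-box bound by E4BP4. PROX1 is a homeodomain factor of hepatocytes, and also of lymphatic endothelium, that holds back the activity of the nuclear receptors HNF4A and LRH-1. In mice, these factors bind each other's genes and form a network that sets up the hepatocyte and biliary lineages.

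Onecut1 and Foxa3 were the 2 factors whose values separated the arrays, so their promoters are shown. RefSeq windows (build GRCm38.p6) run from 250 bases before to 50 bases after the annotated gene start, upstream of and into the first exon. By symbol, 7 of the 8 factors were matched, with 10 windows, and Onecut2 had none. The Onecut1 window is chr9:74861671-74861970 on the plus strand and the Foxa3 window is chr7:19023490-19023789 on the minus strand. Capitals mark every match to the elements searched, which were chosen after the array values were known.
Onecut1: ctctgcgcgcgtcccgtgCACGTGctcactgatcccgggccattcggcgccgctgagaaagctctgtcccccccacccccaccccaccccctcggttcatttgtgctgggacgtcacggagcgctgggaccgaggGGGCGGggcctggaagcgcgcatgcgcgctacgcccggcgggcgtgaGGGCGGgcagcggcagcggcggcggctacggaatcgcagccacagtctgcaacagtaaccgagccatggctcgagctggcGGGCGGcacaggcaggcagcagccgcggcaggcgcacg
Foxa3: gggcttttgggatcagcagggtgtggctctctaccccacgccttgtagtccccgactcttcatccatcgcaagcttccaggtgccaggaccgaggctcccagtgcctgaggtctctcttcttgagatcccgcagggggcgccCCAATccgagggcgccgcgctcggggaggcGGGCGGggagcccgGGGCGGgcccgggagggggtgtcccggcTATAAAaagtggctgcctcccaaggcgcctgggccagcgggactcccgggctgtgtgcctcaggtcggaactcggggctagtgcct

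The capitals in the Onecut1 window are an E-box (CACGTG), which began 232 bases before the start, and 3 GC boxes (GGGCGG). In the Foxa3 window they are a CCAAT box that began 108 bases before the start, 2 GC boxes, and a TATA box (TATAAA) that began 36 bases before it. Both strands were searched, and no marked matches overlapped in these 2 windows. Of all 32851 promoter windows, 7.15% held the E-box, 35.7% the GC box, 37.4% the CCAAT box and 13.6% the TATA box. The D-box letters of E4BP4 and the PAR bZIP activators (TTANGTAA, in 2.32% of all windows) were in none of the 10 windows, which do not cover Onecut2. The same held for the C/EBP element (TTGCNNCAA, 2.08%), the STAT element (TTCNNNGAA, 8.3%) and the nuclear receptor half-site (AGGTCA, 16.3%). The FOXA core (TGTTTNC, 20.5%) was found once in the Foxa1 window and once in 1 of the Prox1 windows, and the ONECUT core (ATCAAT, 7.54%) once in 1 of the Foxa2 windows. These matches describe letters in short windows and are not measured binding. All 10 windows but 1 of Foxa2 were richer in G and C than the median window (52.7%), with 73.0% in the Onecut1 window and 69.0% in the Foxa3 window.

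The values are log2 intensities after RMA, which corrects background, equalises the arrays and summarises probes. Each factor had a single probe set, so no second probe set repeats a difference. A level of one gene cannot be set against that of another as an amount of RNA. Groups by level, summed levels and the word brightest refer to array signal only. With 1 array per genotype there is no replicate error and no test. Each difference is E4bp4-LKO minus WT on the log2 scale and describes these 2 pools. Across all probe sets the arrays had medians of 3.75 (E4bp4-LKO) and 3.74 (WT). All 8 factors lay above the floor, the median level of all genes (4.20), on both arrays. In liver RNA of this kind, fewer cells of a type and less RNA per cell cannot be told apart.

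Higher by 1.5-fold or more in the E4bp4-LKO pool were 2 of the 8 factors (25%), against 1.51% of the 11090 genes above the floor. The 8 were chosen with earlier results of these data known, so these shares do not measure an enrichment. None of the 8 was at least 1.5-fold lower, against 2.06% of those genes. The same 2 shares are the background for every list below, and a short list will often hold no such gene. At 2-fold, Onecut1 was the only one of the 8 counted as higher, against 0.388% of the same genes. The other 6 factors differed by between -0.15 and 0.06, or at most 1.11-fold in either direction. The median difference over the 8 factors was 0.03, and over all genes above the floor it was -0.02. Of those genes, 5043 lay above 0 and 6045 below. The standard deviation between the 8 differences, 0.41, came mainly from Onecut1 and Foxa3.

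**Figure D1:**
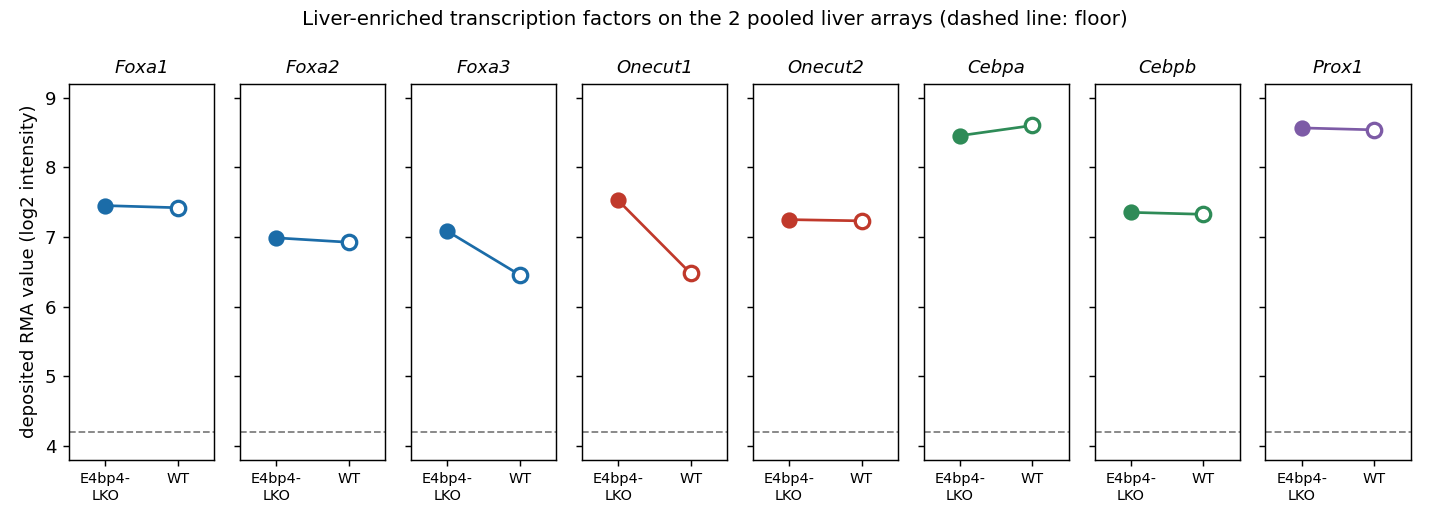
Deposited log2 intensity (vertical axis) of each factor in the E4bp4-LKO pool (filled circle) and the WT array (open circle), 1 pooled array each, with the floor of 4.20 as a dashed line. The lines of Onecut1 and Foxa3 slope, with E4bp4-LKO higher by 1.05 and 0.63, and the other 6 are nearly level; heights are not comparable between genes.

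Onecut1 encodes HNF6, which activates hepatocyte genes and is needed for bile duct formation in the mouse embryo. Its value was 7.52 in the E4bp4-LKO pool, against 6.48 in the WT pool. The difference of 1.05 is 2.07-fold, and 39 of the 11090 genes above the floor, Onecut1 included, were higher by at least as much. Onecut2, its close relative with overlapping roles in the mouse liver bud, was at 7.25 in the E4bp4-LKO pool, against 7.23 in the WT pool. Its difference of 0.02 was the smallest among the 8. The difference of Onecut1 thus exceeded that of its paralogue by 1.03 on the log2 scale. Onecut3, a further family member, had 4.81 in the E4bp4-LKO pool and 4.70 in the WT pool.

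Foxa3 encodes HNF3γ, a FOXA protein found in adult hepatocytes that, unlike its relatives, mice can live without. Its value was 7.08 in the E4bp4-LKO pool, against 6.45 in the WT pool. The difference of 0.63 is 1.55-fold, only just past the threshold, and 136 genes above the floor, Foxa3 included, were higher by at least as much. Foxa1 and Foxa2, which together start liver development in the mouse embryo, showed no such difference. Foxa1 was at 7.45 in the E4bp4-LKO pool and 7.42 in the WT pool. Foxa2, which in adult mouse liver also takes part in bile acid and fasting responses, was at 6.99 in the E4bp4-LKO pool and 6.92 in the WT pool. The Foxa3 difference exceeded that of Foxa1 by 0.60 and that of Foxa2 by 0.57.

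Cebpa, which supports gluconeogenesis and urea synthesis and restrains hepatocyte division, was the only factor of the 8 below 0. It had 8.45 in the E4bp4-LKO pool, against 8.60 in the WT pool, a difference of -0.15. Of the genes above the floor, 48.1% lay at least as far from 0, so this is a common size. Cebpb, the family member that responds to inflammation, fasting hormones and liver regeneration, had 7.35 in the E4bp4-LKO pool and 7.32 in the WT pool. Prox1 had 8.56 in the E4bp4-LKO pool and 8.54 in the WT pool. Both differed by 0.03, and 89.0% of the genes above the floor lay at least as far from 0 as either of them.

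The spread of all genes at a like level gives a scale for these sizes. Split into 4 equal groups by level, the genes of the third, between 6.28 and 7.52, had a central 95% of differences between -0.45 and 0.48. Onecut1 and Foxa3 lay above this range, and Foxa1, Foxa2, Onecut2 and Cebpb, of the same group, lay inside it. Cebpa and Prox1 belonged to the brightest group, with a central 95% between -0.40 and 0.48, and were inside it too. Where a gene above the floor had 2 probe sets (555 genes), the differences of the probe sets had a standard deviation of 0.22, which is a measure of probe disagreement and not of mice.

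**Figure D2:**
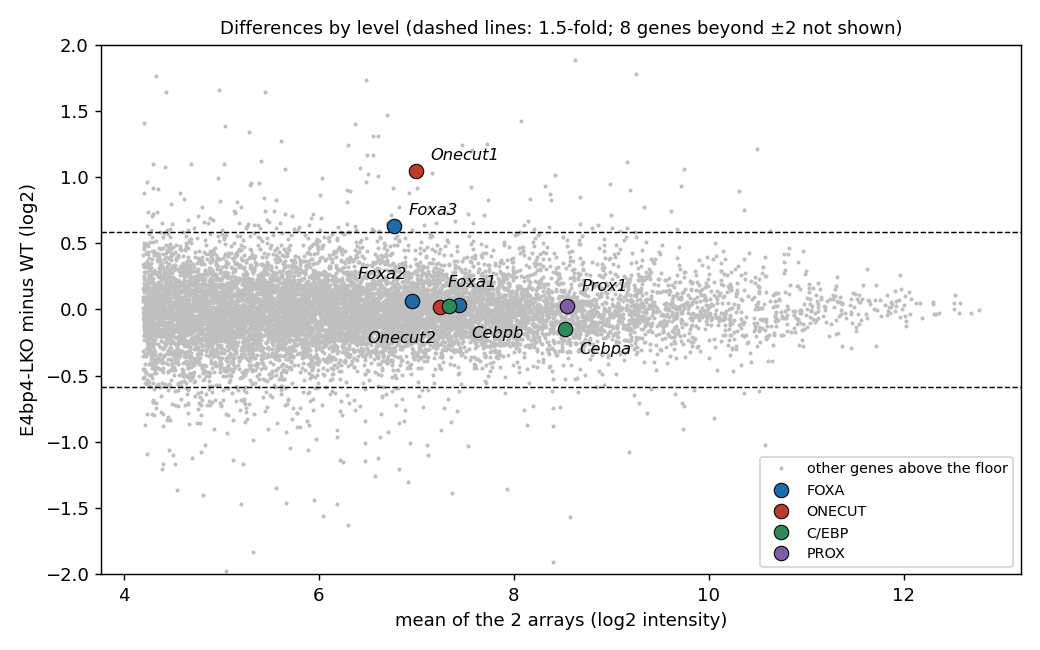
E4bp4-LKO minus WT log2 difference (vertical axis) against the mean of the 2 arrays (horizontal axis, log2 intensity) for genes above the floor (grey) and the 8 factors (coloured by family), with 1.5-fold as dashed lines. Onecut1 at 1.05 and Foxa3 at 0.63 lie above the upper line, Onecut1 by more, and the other 6 factors lie within 0.15 of 0.

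No gene next to the factors on the chromosome that lay above the floor was past 1.5-fold in either direction. Of all genes above the floor, 1.51% were that much higher and 2.06% that much lower. Foxa3 lies between Irf2bp1 and Sympk, which encode an interferon regulatory factor partner and an mRNA 3'-end processing scaffold. Irf2bp1 differed by -0.19 and Sympk by -0.14. The nearest genes with a value beside Onecut1 were Fam214a, which differed by -0.14, and the non-coding RNA gene Gm16551, which was below the floor and differed by 0.24. The long non-coding RNA gene 9030622O22Rik beside Foxa2 had 5.82 in the E4bp4-LKO pool and 5.56 in the WT pool. Of the 16 neighbours of all 8 factors, 10 lay above the floor, and their differences ran from -0.31 (Tmem189, beside Cebpb) to 0.28 (Slc7a10, beside Cebpa).

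Other factors of the hepatic network were set beside the 8. Of 16 listed, 14 had a value, all above the floor. None was at least 1.5-fold higher or lower, against 1.51% higher and 2.06% lower among all genes above the floor. Their median difference was -0.01, with 6 above 0 and 8 below. Hnf4a, the nuclear receptor at the centre of the network, had 10.25 in the E4bp4-LKO pool and 10.12 in the WT pool. Hhex, a homeobox factor of early liver growth, was farthest above 0, with 7.34 in the E4bp4-LKO pool and 6.87 in the WT pool. Gata6, a zinc finger factor of endoderm, was farthest below it, at -0.34. Tbx3 (-0.19) and Creb3l3 (-0.17) followed.

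Of 20 other forkhead genes, 14 lay above the floor. None of the 14 was past 1.5-fold, against 1.51% higher and 2.06% lower among all genes above the floor. Their median was -0.14, with 6 above 0 and 8 below. Foxp4 (-0.36), Foxk1 (-0.30), Foxk2 (0.25) and Foxp2 (-0.25) were farthest from 0. Foxo1, which insulin keeps out of the nucleus, differed by 0.09. A 1.5-fold difference among the forkhead genes was thus seen for Foxa3 alone of the 17 above the floor, counting Foxa1 and Foxa2.

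Among 8 bZIP relatives, 7 lay above the floor, 2 were at least 1.5-fold lower and none was as much higher. The 2 were Nfil3, the targeted gene (4.47 in the E4bp4-LKO pool, 5.94 in the WT pool), and the D-box activator gene Dbp (8.65 in the E4bp4-LKO pool, 9.72 in the WT pool). The D-box activator genes Tef and Hlf differed by -0.22 and -0.03. The remaining C/EBP genes were closer to 0 than Nfil3 and Dbp. Cebpe differed by 0.30, Cebpg, the chromosomal neighbour of Cebpa, by -0.06, and Ddit3, the stress-induced inhibitor of C/EBP dimers, by 0.07. Cebpd, an acute phase factor, was below the floor, at 3.76 in the E4bp4-LKO pool and 3.56 in the WT pool.

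Genes reported elsewhere as targets of these factors did not pass 1.5-fold in either direction. Lists this short would often hold none that do, as 1.51% of genes above the floor were that much higher and 2.06% lower. For FOXA, 11 of 12 had a value, with a median of -0.003, 5 above 0 and 6 below. Albumin (Alb) was at 12.77 on both arrays, and transthyretin (Ttr) was at 12.29 in the E4bp4-LKO pool and 12.33 in the WT pool. The highest values of any probe set were 12.82 (E4bp4-LKO) and 12.78 (WT). Whether signal so near the top was saturated, which would hide a difference, was not tested. The gluconeogenic gene G6pc (0.42), the urea cycle gene Cps1 (0.30), the fatty acid import gene Cpt1a (-0.22) and the lipoprotein assembly gene Mttp (-0.16) were farthest from 0. For ONECUT, only 3 of 6 had a value. Cyp7a1, the first enzyme of bile acid synthesis, had 9.42 in the E4bp4-LKO pool and 8.88 in the WT pool, while the glucose transporter gene Slc2a2 (-0.18) and Ttr (-0.04) were just below 0. For C/EBP, 13 of 14 had a value, 11 of them above 0, with a median of 0.06. Among all 11090 genes above the floor, 5043 lay above 0 and 6045 below. Besides G6pc and Cps1, the iron hormone gene Hamp (0.26) and the glycogen synthase gene Gys2 (-0.22) were farthest from 0.

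**Figure D3:**
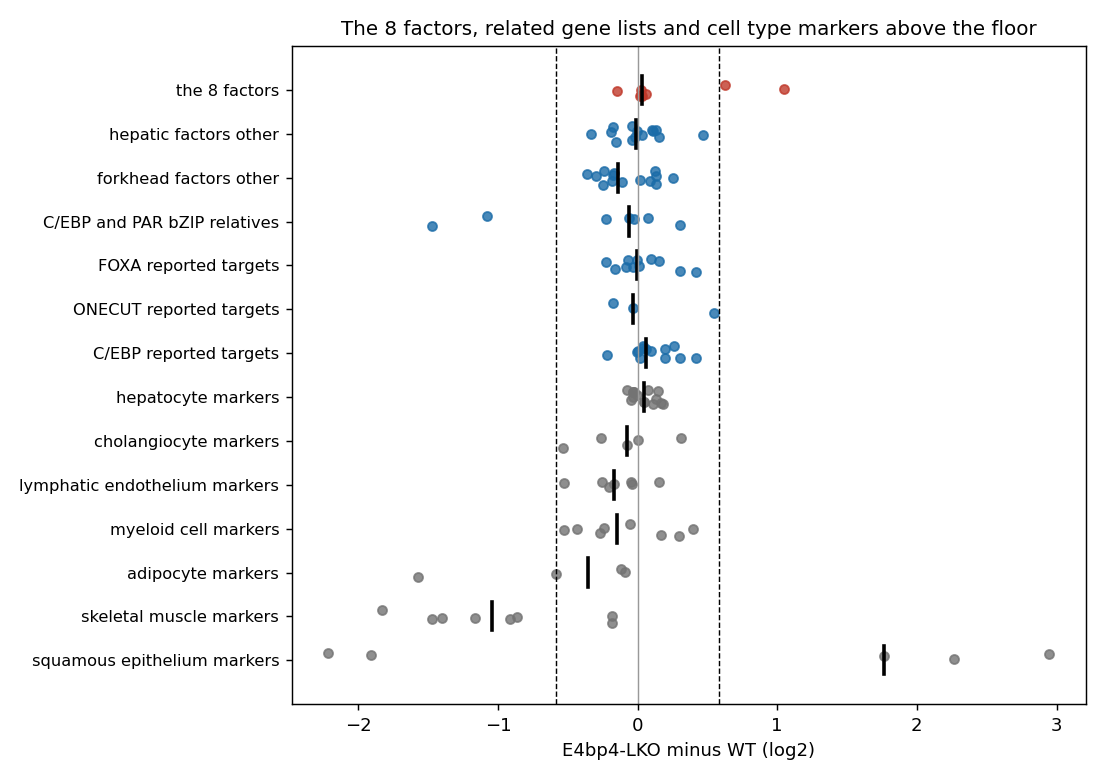
E4bp4-LKO minus WT log2 difference (horizontal axis) of each gene above the floor in the 8 factors (red), the related gene lists (blue) and cell type marker lists (grey), with list medians as black bars and 1.5-fold as dashed lines. Of the 8 factors and the lists of other factors and targets, Onecut1 and Foxa3 lie past the upper line and Nfil3 and Dbp past the lower one.

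Markers of the cell types that use these factors were set beside them. All 15 hepatocyte markers with a value were above the floor and differed by between -0.08 and 0.18, so their range stayed below Foxa3 and Onecut1. Fgg (0.18), Asgr2 (0.17), Asgr1 (0.14) and Fgb (0.13), which encode fibrinogen chains and asialoglycoprotein receptor subunits, were farthest from 0. The summed level of all 15 was 15.64 in the E4bp4-LKO pool and 15.61 in the WT pool on the log2 scale. Saturation of the brightest of these markers was not tested. Of 13 cholangiocyte markers with a value, 5 lay above the floor, none of them past 1.5-fold, and 8 lay below it. The summed level of all 13 was 8.97 in the E4bp4-LKO pool and 9.13 in the WT pool. Aqp1 was the brightest of them, at 7.94 in the E4bp4-LKO pool and 8.20 in the WT pool, so the sum leans on it. The bile duct keratin gene Krt19 was under the floor (3.63 in the E4bp4-LKO pool, 4.08 in the WT pool), Epcam was at 4.83 in the E4bp4-LKO pool and 4.52 in the WT pool, and Sox9 differed by -0.08. Bicc1 (-0.53) and Aqp1 (-0.26) were the markers farthest below 0 among the 5.

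For Prox1, 7 lymphatic endothelial markers lay above the floor, 6 of them below 0 and none past 1.5-fold. Lyve1 (-0.52), which sinusoidal endothelium also expresses, was at the low end, followed by Reln (-0.25), Flt4 (-0.20) and Nrp2 (-0.17). Mmrn1 (-0.05) and Sox18 (-0.04) differed little, and Pdpn (0.15) was above 0. The summed level of the 7 was 9.51 in the E4bp4-LKO pool and 9.84 in the WT pool. This sum leans on Lyve1, the brightest of the 7, at 8.26 in the E4bp4-LKO pool and 8.78 in the WT pool. For the C/EBP factors, 8 of 10 myeloid markers lay above the floor with none past 1.5-fold, 3 of them above 0 and 5 below. Cd14 (-0.52), Cd68 (-0.43), Lyz2 (0.40) and Vsig4 (0.30) were farthest from 0, and the macrophage marker Adgre1 differed by -0.27. The summed level of the 10 was 10.88 in the E4bp4-LKO pool and 10.81 in the WT pool. Of 7 adipocyte markers with a value, 4 lay above the floor and 2 were at least 1.5-fold lower, Cidec (-1.57) and Lpl (-0.59), both of which fatty hepatocytes or other liver cells can also express. The other 2, Retn (-0.12) and Fabp4 (-0.09), were closer to 0. Adipoq, Lep and Plin1 were below the floor, and the summed adipocyte level was 9.04 in the E4bp4-LKO pool and 9.95 in the WT pool. This sum leans on Cidec, the brightest of the 7, at 7.79 in the E4bp4-LKO pool and 9.36 in the WT pool.

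Genes listed as markers of 2 tissues other than liver also differed between the pools, the squamous ones in both directions. Of 8 skeletal muscle markers above the floor, 6 passed 1.5-fold in the lower direction, led by Myh2 (-1.83), Atp2a1 (-1.47), Myh4 (-1.40) and Myh1 (-1.16), and the summed level of all 10 was 8.53 in the E4bp4-LKO pool and 9.51 in the WT pool. Among 5 squamous epithelium markers above the floor, 3 passed 1.5-fold in the higher direction, led by Krt4 (2.95) and Krt13 (2.26), and 2 in the lower direction, Sprr1a (-2.22) and Ly6d (-1.91). The keratin gene Krt14 of the same list was below the floor, at 3.14 in the E4bp4-LKO pool and 2.95 in the WT pool. The summed level of this list was 8.98 in the E4bp4-LKO pool and 10.32 in the WT pool. Sprr1a and Ly6d were its brightest members on both arrays. Whether the squamous list reflects such a tissue was not tested. The part of RNA from other tissues in the differences of Onecut1 and Foxa3 was not tested either.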

How the data were processed

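Pooled liver RNA, 400 ng per array, was labelled by the WT Plus protocol, per the labels. The authors deposited log2 intensities for each probe set, and the submitters' processing notes name RMA and R 3.4.0. RMA compresses differences of dim genes towards 0. Saturation of the brightest genes was not tested. Detection calls and scanner files were not analysed here, and a level near the floor is the only sign of background.

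Of 41345 probe sets, 23521 had exactly 1 symbol, 1814 several and 16010 none in the platform annotation. Those with 1 symbol were averaged per gene (22180 genes), and the 8 factors matched RefSeq (GRCm38.p6) through their Entrez identifiers. The floor was the median of the genes' mean level. A gene was counted at a fold of at least 1.5. With 1 array per genotype no test was made, and the number of arrays limits the precision. Named are the 8 factors, their nearest neighbours with a value, and, of each list, up to 4 members farthest from 0 above the floor with its best known members. Some lists have further members named beside these. Members and lists were chosen with earlier results of these data known. The scripts (Python 3.11.15, pandas 2.3.3, statsmodels 0.14.6) were tested on simulated data.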

Additional observations from a re-analysis of the deposited data

How the results depend on the processing

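The differences of the 8 factors were recomputed with the brightest probe set per gene, with arrays centred on their medians, with the intensity trend removed, after a further quantile normalization and with probe sets of several symbols added. All 40 values kept their sign and moved by less than 0.22, the standard deviation between probe sets. With 1 probe set per factor, the brightest-probe-set setting could not change a value. Adding probe sets of several symbols also left all 8 unchanged. The 6 factors under 1.5-fold differed by at most 0.15 in either direction, so a limit of 0.22 says little about them. Onecut1 ranged from 1.04 to 1.07 and Foxa3 from 0.62 to 0.65. At a fold threshold of 2, only 1 of the 8 factors, Onecut1, was counted as higher. The numbers of genes counted as higher and lower were 821 and 986 at the lower fold threshold that was tried, 43 and 45 at a threshold of 2, 84 and 72 with the floor at the 75th percentile, and 295 and 365 with no floor. At that lower threshold, 1 gene counted as higher in each of the lists of other hepatic factors and of FOXA, ONECUT and C/EBP targets, and 1 as lower in each of the lists of other hepatic factors and other forkhead factors. With the floor at the 75th percentile, 1 bZIP relative counted as lower. With the intensity trend removed, the median of the other hepatic factors was 0.006 in place of -0.01, and with no floor that of the other forkhead factors was -0.01 in place of -0.14. Fewer or more genes counted follow from the threshold or floor itself. No paired analysis was possible because each genotype has 1 array. No replicate could be left out, for the same reason, so the spread between mice is unknown. Each factor rests on 1 probe set, and depth in the sense of read counts does not apply to arrays.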
